A study of Macaca mulatta with 25 samples.

Results

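The 10 genes described here form the transcriptional end of the Hippo pathway and the kinases and scaffolds that hold it in check. They are the coactivators YAP1 and WWTR1, the DNA-binding partners TEAD1, TEAD2, TEAD3 and TEAD4, the kinases LATS1 and LATS2, and the angiomotins AMOT and AMOTL2. They were chosen by name, and 9 of the 10 symbols matched 1 macaque gene identifier each among the 35395 genes of the table. TEAD4 was not matched and is not analysed here. All 9 matched genes passed the filter on low counts, so every matched gene has a test.

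The study measured RNA in rhesus macaque blastocysts, the stage at which the embryo has an outer trophectoderm, an inner cell mass and a fluid-filled cavity. The eggs came from females treated for 5 to 6 years, starting at about 2.5 years of age just before puberty, with 10 females in each group at the start. The T group received testosterone implants, set to reach 3 to 5 times the normal circulating level, and ate chow with 15% fat, 59% carbohydrate and 26% protein. The WSD group ate a Western-style diet with 36% fat, 46% carbohydrate and 18% protein, and the labels name no implant for it. The TWSD group received the testosterone implants and the Western-style diet together. The C group received cholesterol implants and ate the chow. Ovarian stimulation with gonadotropins was possible in 7 T, 6 WSD, 3 TWSD and 10 C females, the loss being put down by the submitters to ill health, mainly endometriosis. All eggs, those of C females included, went through in vitro fertilisation with sperm from proven fathers, and embryos were kept in culture for up to 8 days. The table held 10 T, 8 WSD, 2 TWSD and 5 C libraries, and their labels tie no library to a mother, father, collection day or number of embryos. The p-values therefore measure the spread between libraries, some of which may share a mother.

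In the Hippo pathway, the kinases STK3 and STK4 activate LATS1 and LATS2, which phosphorylate YAP1 and WWTR1 and so keep them out of the nucleus. When the kinases are quiet, YAP1 and WWTR1 enter the nucleus, bind TEAD proteins and switch on genes such as CCN1 and CCN2. In the mouse embryo the pathway is off in polarised outer cells, where YAP1 with TEAD4 drives the trophectoderm genes CDX2 and GATA3, and on in inner cells, where AMOT at the junctions helps LATS kinases to act. Much of this control acts on the proteins through phosphorylation and location, which RNA counts do not measure.

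Total counts ran from 14219054 to 26753850 in T, 15005205 to 35544542 in WSD, 20381869 to 26710010 in TWSD and 15272016 to 27659266 in C. Levels below are CPM, a count divided by its library's size. By total counts alone, before scaling, 1 CPM stood for 14.2 to 35.5 counts. The levels were then scaled with TMM factors, which changes that number in each library. They were not divided by gene length, so levels are compared between libraries and never between genes. Several libraries stood apart before any comparison. CGA, the alpha subunit of chorionic gonadotropin and a syncytiotrophoblast marker, was at 1004 CPM in T 1 and 3025, 2400 and 1073 CPM in libraries C 8, C 11 and C 12, and at most 4.24 CPM in the other 21 libraries. Markers of the inner cell mass were low in C 11 and C 12, with NANOG at 0.637 and 0.627 CPM and POU5F1 at 8.51 and 0.627 CPM, and the trophectoderm gene CDX2 stood at 1.57 CPM in C 12. Other trophectoderm genes went both ways in C 12, with TFAP2A at 1161, GATA2 at 1352, DAB2 at 693 and GATA3 at 395 CPM. KRT18 was at 366, TFAP2C at 32.1 and KRT7 at 5.90 CPM there. C 11 and C 12 thus held little RNA of the inner cell mass that a blastocyst holds, and their stage was not tested. TWSD 2 had 3 counts or fewer in 25.5% of the tested genes, against 2.76% to 17.0% in the other 24 libraries.

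The members' own levels showed the same 2 extremes. C 12 was the highest of all 25 libraries for 5 of the 9 members, YAP1, TEAD1, LATS1, LATS2 and AMOTL2, while it was the highest for 19.3% of all tested genes. TWSD 2 was the lowest for 6 of the 9, YAP1, TEAD1, TEAD2, LATS1, LATS2 and AMOT, against 16.2% of all tested genes. WWTR1 ran the other way in C 12, which was its lowest library.

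**Figure D1:**
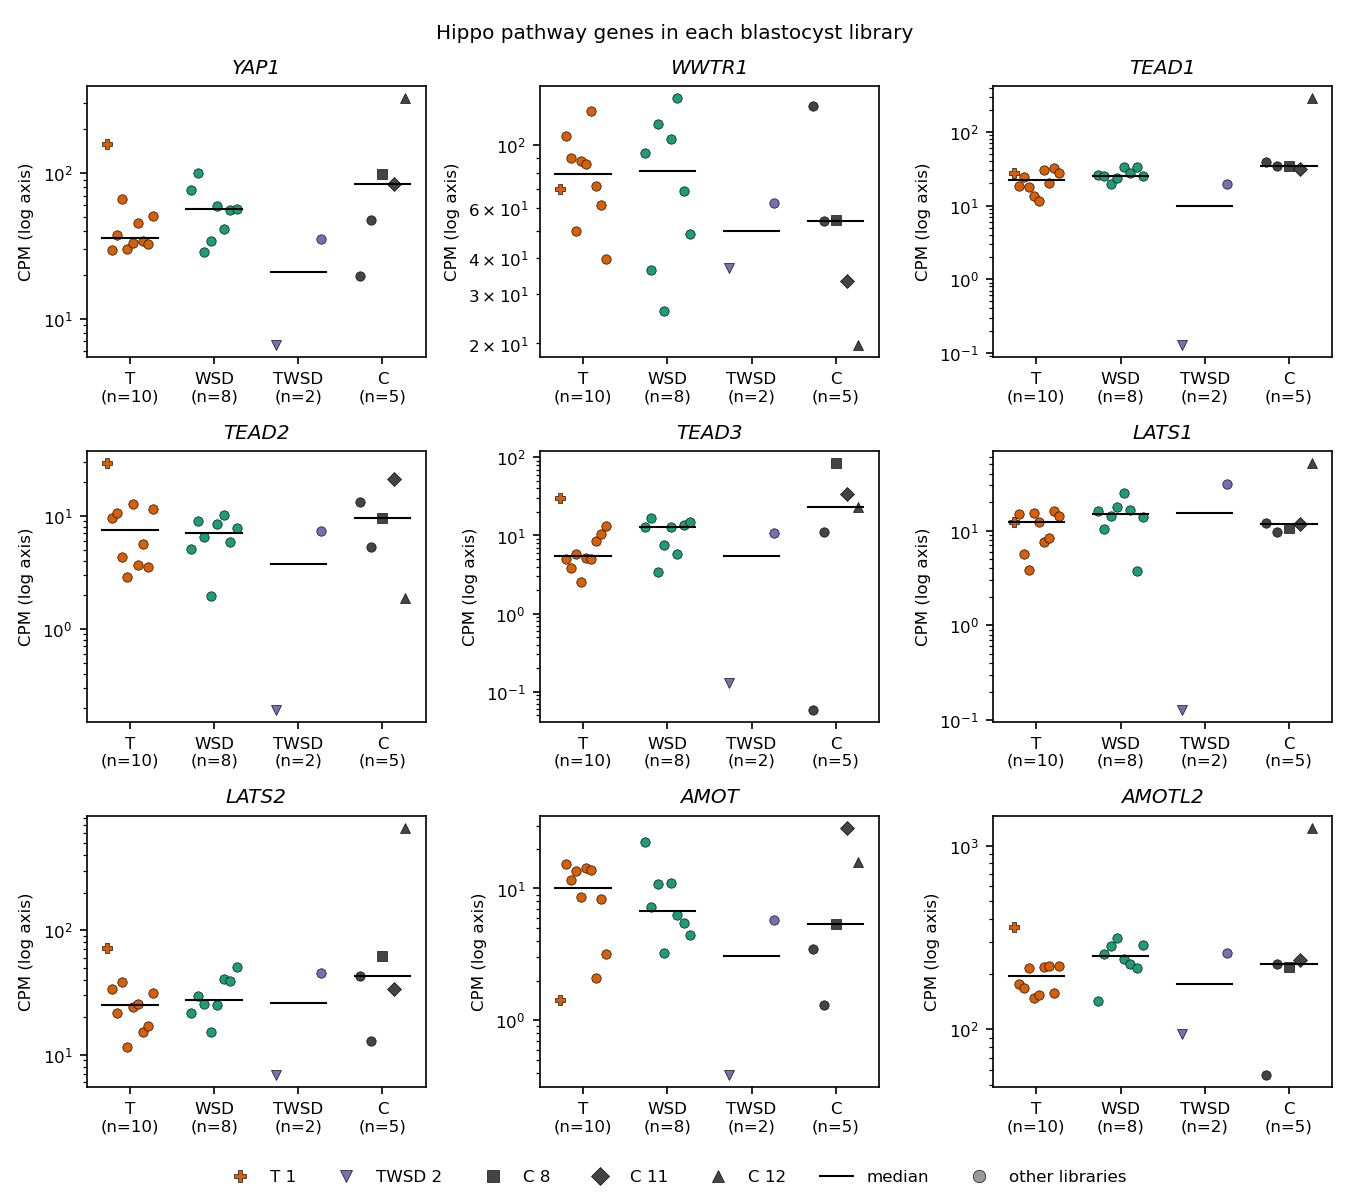
Level of each of the 9 matched Hippo genes (TMM-scaled CPM, log axis) in every library, with 1 point per library, grouped as T, WSD, TWSD and C, and a bar at each group's median. C 12 stands at the top of the YAP1, TEAD1, LATS1, LATS2 and AMOTL2 panels and TWSD 2 at the bottom of the YAP1, TEAD1, TEAD2, LATS1, LATS2 and AMOT panels.

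YAP1, the coactivator that carries the pathway's output, was more widely spread in controls than in T or WSD, as was the median tested gene. Its standard deviation was 0.74 in T, 0.60 in WSD and 1.49 in C on the log2 CPM scale. The median over all tested genes was 0.73 in T, 0.70 in WSD and 1.35 in C. YAP1 ranged from 29.5 to 159 CPM in T (median 35.7) and from 28.7 to 100 CPM in WSD (median 56.4). It was at 6.64 and 35.4 CPM in TWSD 2 and TWSD 3, and at 19.6, 47.3, 98.0, 84.3 and 325 CPM in C 1, C 2, C 8, C 11 and C 12. T 1 held the highest T value, C 12 the highest of all, and the T, WSD and C ranges overlapped. The medians ran, from low to high, TWSD, T, WSD and C, and no neighbours in that order were apart by more than their spread.

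WWTR1, also called TAZ, is the paralogue of YAP1 and binds the same TEAD partners. Its CPM ran from 39.7 to 132 in T (median 79.1) and from 26.1 to 146 in WSD (median 81.3). TWSD 2 and TWSD 3 had 37.0 and 62.5 CPM, and C 1, C 2, C 8, C 11 and C 12 had 138, 54.0, 54.7, 33.1 and 19.8 CPM. All 4 groups overlapped, and the medians ran TWSD, C, T and WSD from low to high with no separation beyond the spread. In controls the extremes were swapped, since C 1 was the highest C library for WWTR1 and the lowest for YAP1, and C 12 the lowest for WWTR1 and the highest for YAP1.

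TEAD1 had the narrowest range of the 9 genes once C 12 and TWSD 2 were set aside, 3.33-fold over the other 23 libraries. TEAD proteins bind DNA and activate genes together with coactivators such as YAP1 and WWTR1. TEAD1 ran from 11.7 to 32.5 CPM in T (median 22.3) and from 19.5 to 33.5 CPM in WSD (median 25.4). TWSD 2 and TWSD 3 had 0.129 and 19.4 CPM, and C 1, C 2, C 8, C 11 and C 12 had 38.9, 34.1, 34.1, 31.1 and 286 CPM. The T, WSD and C groups overlapped by a narrow margin, with 9 of 10 T libraries, 6 of 8 WSD libraries and both TWSD libraries below the lowest C library. In C, 4 of the 5 libraries lay close together and C 12 lay far above them, while TWSD 2 had 2 TEAD1 counts and TWSD 3 had 540. Within WSD the standard deviation of TEAD1 on the log2 CPM scale was 0.25, against a median of 0.70 over all tested genes there.

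TEAD2, which is expressed in early mouse embryos, overlapped between the groups. Its CPM ran from 2.85 to 29.1 in T (median 7.54) and from 1.95 to 10.2 in WSD (median 7.10). It was at 0.193 and 7.33 CPM in TWSD 2 and TWSD 3, and at 13.2, 5.33, 9.46, 20.9 and 1.88 CPM in C 1, C 2, C 8, C 11 and C 12. T 1 and C 11 were the highest libraries, and C 12 was low, unlike its place for TEAD1.

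TEAD3, a form with high expression in human placenta, separated the controls from one another. It ran from 2.56 to 30.6 CPM in T (median 5.47) and from 3.46 to 16.7 CPM in WSD (median 12.8). TWSD 2 and TWSD 3 had 0.129 and 10.9 CPM, and C 1, C 2, C 8, C 11 and C 12 had 0.0587, 11.1, 84.0, 34.0 and 23.2 CPM. The highest T library was T 1 and the 3 highest C libraries were C 8, C 11 and C 12, which are the 4 libraries with CGA at 1004 CPM or more. C 1 had a single TEAD3 count, and C 2 lay inside the T and WSD ranges.

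The LATS kinases phosphorylate YAP1 and WWTR1, and LATS2 is itself a known YAP1 target that feeds back on the pathway. LATS1 ran from 3.82 to 16.2 CPM in T (median 12.4) and from 3.73 to 25.2 CPM in WSD (median 15.1). TWSD 2 and TWSD 3 had 0.129 and 30.9 CPM, and C 1, C 2, C 8, C 11 and C 12 had 12.0, 9.75, 10.6, 11.7 and 51.3 CPM. C 12 lay above the T and WSD ranges, and the other 4 controls lay within both. The 2 TWSD libraries were the lowest and the second highest of all 25.

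LATS2 ran from 11.4 to 71.3 CPM in T (median 24.9) and from 15.3 to 50.1 CPM in WSD (median 27.4). It was at 6.89 and 44.9 CPM in TWSD 2 and TWSD 3, and at 42.6, 12.9, 62.2, 33.7 and 658 CPM in C 1, C 2, C 8, C 11 and C 12. C 12 was 23.9 times the median of the other 24 libraries. The other 4 controls all lay within the T range, so the groups overlapped.

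The angiomotins are junction proteins that bind YAP1 and help LATS kinases to act on it. AMOT ran from 1.44 to 15.4 CPM in T (median 10.1) and from 3.24 to 22.5 CPM in WSD (median 6.76). TWSD 2 and TWSD 3 had 0.387 and 5.75 CPM, and C 1, C 2, C 8, C 11 and C 12 had 3.47, 1.30, 5.34, 28.6 and 15.8 CPM. C 11 and WSD 1 were the highest, and the T, WSD and C groups overlapped over most of their ranges.

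AMOTL2, an AMOT relative and itself a YAP1 target, ran from 148 to 361 CPM in T (median 196) and from 143 to 314 CPM in WSD (median 250). TWSD 2 and TWSD 3 had 94.8 and 260 CPM, and C 1, C 2, C 8, C 11 and C 12 had 56.7, 227, 220, 237 and 1243 CPM. It was among the most even members within the treated groups, with a standard deviation of 0.38 in T and 0.35 in WSD on the log2 CPM scale. In C it was 1.58, beside a median of 1.35 over all tested genes there, with C 12 at the top and C 1 at the bottom.

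Testosterone alone was compared first. LATS2 and TEAD1 fell in T embryos, and no member rose. LATS2 averaged 28.9 ± 17.1 CPM in T and 162 ± 278 CPM in C (SD, n = 10 and n = 5), a 5.60-fold lower fitted level (log2 change -2.49 ± 0.60 SE, adjusted p = 0.0195). TEAD1 averaged 22.3 ± 7.15 CPM in T and 84.8 ± 112 CPM in C, a 3.80-fold lower fitted level (log2 change -1.92 ± 0.55, adjusted p = 0.0448). Here and below, adjusted p-values are those of the quasi-likelihood F-test of edgeR, with the Benjamini-Hochberg method applied over all 13934 tested genes. In whole embryos, fewer cells of a type and less RNA per cell cannot be told apart.

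The 2 of 9 members called lower stand against 3.77% of all tested genes called lower, 0.337% called higher and 4.11% called in either direction in the same comparison. Among the others, TEAD3 had a log2 change of -1.76 ± 0.78 (adjusted p = 0.216), YAP1 of -1.15 ± 0.49 (adjusted p = 0.194) and AMOTL2 of -0.96 ± 0.40 (adjusted p = 0.186). LATS1 (-0.78), AMOT (-0.24), TEAD2 (-0.12) and WWTR1 (0.41) were further from the threshold. The estimates were negative for 8 of the 9, with a median log2 change of -0.96, against -0.12 over all tested genes.

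Both calls rested on 1 control library. Without C 12, the log2 change in T was -0.39 for LATS2 (adjusted p = 0.825) and -0.62 for TEAD1 (adjusted p = 0.699), and 0 of 9 members passed. That fit called 64 of all 13934 tested genes, beside 573 with all libraries. Without C 8, C 11 and C 12, which leaves 2 controls, the log2 change was 0.083 for LATS2 and -0.68 for TEAD1. Neither passed, where 1 of all tested genes was called. With these 3 controls left out the sign turned for 8 of the 9 members, all but TEAD1, with YAP1 at 0.65, TEAD3 at 0.71 and AMOT at 1.98. Without C 1, in turn, 4 members passed, where 1249 of all tested genes were called. TEAD3 (-2.08, adjusted p = 0.0484) and AMOTL2 (-1.24, adjusted p = 0.0293) joined LATS2 and TEAD1. With counts scaled by library totals neither passed, at changes of -2.04 for LATS2 (adjusted p = 0.0645) and -1.55 for TEAD1 (adjusted p = 0.135), which kept most of their size.

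The Western-style diet alone gave a like picture against the same controls, which the comparisons share. LATS2 fell in WSD embryos, and no member rose. It averaged 30.8 ± 11.4 CPM in WSD and 162 ± 278 CPM in C (SD, n = 8 and n = 5), a 5.26-fold lower fitted level (log2 change -2.40 ± 0.64, adjusted p = 0.0333). The 1 of 9 called lower stands against 3.6% of tested genes called lower, 0.466% called higher and 4.07% in either direction. TEAD1 had a log2 change of -1.67 ± 0.59 (adjusted p = 0.103), TEAD3 of -1.48 ± 0.82 (adjusted p = 0.362) and YAP1 of -1.02 ± 0.51 (adjusted p = 0.296). The estimates for AMOTL2 (-0.69), TEAD2 (-0.57), LATS1 (-0.37), AMOT (-0.30) and WWTR1 (0.43) did not pass either. The median over the 9 was -0.69, against -0.12 over all tested genes.

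Without C 12, LATS2 changed by -0.30 in WSD (adjusted p = 0.890) and no member passed. That fit called 57 of all tested genes, beside 567 with all libraries. Without C 8, C 11 and C 12 the LATS2 estimate was 0.17 (adjusted p = 0.985), and the sign turned for 7 of the 9 members, all but TEAD1 and TEAD2. With either TWSD library left out, which changes the pooled spread and no WSD or C value, TEAD1 also passed in WSD (adjusted p = 0.0262 without TWSD 2 and 0.0256 without TWSD 3).

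**Figure D2:**
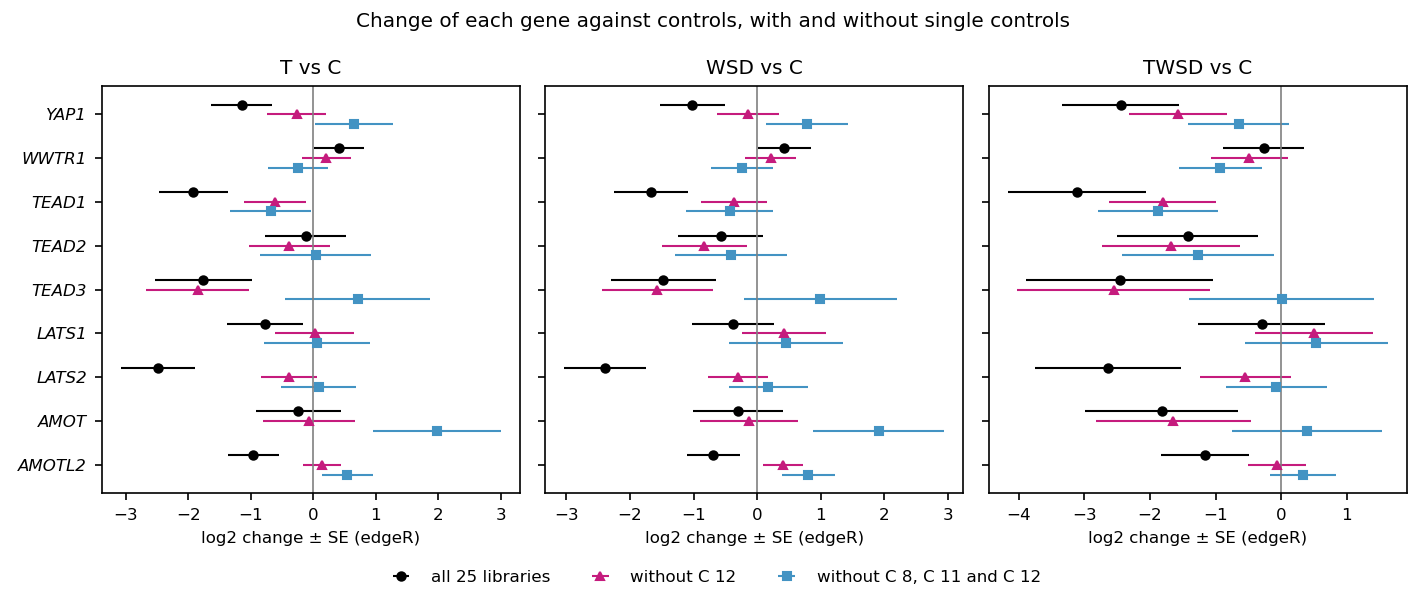
Fitted log2 change of each Hippo gene with its standard error in T, WSD and TWSD, each against C, with all 25 libraries, without C 12, and without C 8, C 11 and C 12. LATS2 stood at -2.49 in T and -2.40 in WSD with all libraries, at -0.39 and -0.30 without C 12, and at 0.083 and 0.17 without the 3 controls.

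With both treatments, no member passed, and the 2 TWSD libraries lay far apart. TWSD 2 had 3 counts or fewer for TEAD1, TEAD2, TEAD3 and LATS1, with 2, 3, 2 and 2 counts, while TWSD 3 had 540, 204, 303 and 859 counts. The fitted log2 change from C was -3.11 ± 1.06 for TEAD1 (adjusted p = 0.109), -2.64 ± 1.11 for LATS2 (adjusted p = 0.171), -2.45 ± 0.89 for YAP1 (adjusted p = 0.126) and -2.46 ± 1.43 for TEAD3 (adjusted p = 0.307). By edgeR's quasi-likelihood test 0 of 9 passed after adjustment, where 1.2% of all tested genes were called. An unadjusted p under 0.05 was found for 3 of 9, beside 3062 of all 13934 tested genes. DESeq2 called 2 of the 9, LATS2 and YAP1, where it called 1995 of all 13934 tested genes, and gave TEAD1 no p-value. Limma with voom quality weights called 0 of the 9 and 0 of all tested genes. The estimates of all 9 were negative with a median of -1.82, against -0.38 over all tested genes, and that of LATS1 (-0.30) turned to 0.0093 with library totals.

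The estimates depended on which TWSD library was kept. On TWSD 2 alone against C, the log2 changes ran from -9.30 for TEAD1 to -0.69 for WWTR1. Their median over the 9 was -4.80, against -1.08 over all tested genes, so a fall was not limited to the members. On TWSD 3 alone, the median over the 9 was -0.92, against -0.34 over all tested genes. In each of these fits the lone library is assumed to vary like the other groups.

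T and WSD embryos were compared directly, with no control involved. No member differed beyond the spread: the log2 changes of T over WSD lay between -0.41 for LATS1 and 0.45 for TEAD2, with an adjusted p of 1.00 for each of the 9. YAP1 averaged 51.8 ± 39.3 CPM in T and 56.6 ± 23.4 CPM in WSD, and TEAD1 22.3 ± 7.15 CPM in T and 26.7 ± 4.65 CPM in WSD (SD, n = 10 and n = 8). By edgeR's quasi-likelihood test 0 of 9 members passed and 0 had an unadjusted p under 0.05. In the same comparison 0% of all tested genes were called, and 237 of 13934 had an unadjusted p under 0.05. DESeq2 and limma with voom quality weights also called 0 of 9, beside 6 and 0 of all tested genes.

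The interaction asked whether the diet acted differently with testosterone than without, as the log2 change of TWSD over T minus that of WSD over C. None of the 9 members passed edgeR's quasi-likelihood test after adjustment, where 0.0718% of tested genes were called. LATS2 had the one unadjusted p under 0.05 (2.24 ± 1.02, adjusted p = 0.330), beside 1889 of all 13934 tested genes. DESeq2 and limma with voom quality weights called 0 of the 9, beside 392 and 0 of all tested genes. On TWSD 2 alone in place of both TWSD libraries, the median of the 9 was -4.26, against -0.62 over all tested genes, with LATS1 at -5.99. Without C 8, C 11 and C 12 the LATS2 value was -0.33.

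Paralogues were then set against each other within each library, so that library scaling cancels. These 5 pairs were chosen after the counts were seen. The log2 ratio of YAP1 to WWTR1 ran from -1.86 to 1.18 in T (median -1.18) and from -2.05 to 1.47 in WSD (median -0.30). It was -2.47 and -0.82 in TWSD 2 and TWSD 3, and -2.82, -0.19, 0.84, 1.35 and 4.04 in C 1, C 2, C 8, C 11 and C 12. C 1 and C 12 were the lowest and the highest of all 25 libraries, so controls spanned the treated groups. The group means were -0.77 ± 1.03 in T, -0.40 ± 1.16 in WSD, -1.65 ± 1.17 in TWSD and 0.64 ± 2.49 in C (SD).

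The ratio of LATS2 to LATS1 averaged 1.32 ± 1.10 in T, 1.13 ± 1.16 in WSD, 2.98 ± 3.45 in TWSD and 2.00 ± 1.22 in C on the log2 scale. That of TEAD3 to TEAD1 averaged -1.61 ± 0.85 in T, -1.43 ± 0.68 in WSD, -0.42 ± 0.59 in TWSD and -2.52 ± 3.97 in C, where C 1 was at -8.79 and C 8 at 1.30. TEAD1, TEAD3 and LATS1 had 2 counts each in TWSD 2, and TEAD3 had 1 count in C 1. The TWSD 2 ratios of 5.43 for LATS2 to LATS1 and 0 for TEAD3 to TEAD1, and the C 1 value of -8.79, thus rest on few counts. The 0.5 added to each count weighs on them, and so do the group means that hold them. The 20 exact two-sided permutation tests (5 ratios in 4 comparisons) found no difference past the threshold, with adjusted p-values from 0.741 to 0.784. With 2 TWSD libraries against 5 C libraries the smallest p such a test can give is 0.0476, before any adjustment.

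**Figure D3:**
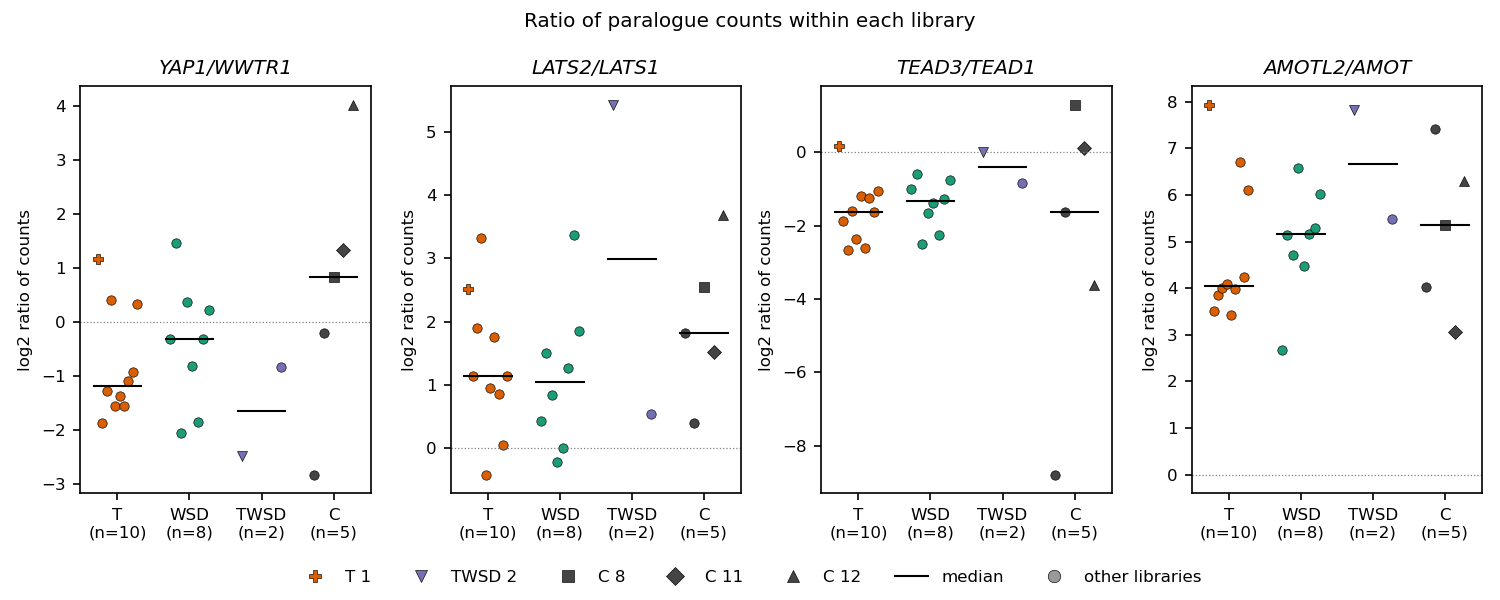
Log2 ratio of 2 paralogues within each library, with 1 point per library and a bar at each group's median, for T, WSD, TWSD and C (4 of the 5 pairs). For YAP1 over WWTR1 the C points span -2.82 in C 1 to 4.04 in C 12, beyond both ends of the other 3 groups.

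The wider pathway was described with 51 symbols, of which 49 matched and 44 were tested. In T embryos 6 of 44 fell and 0 rose (13.6%, against 4.11% of all tested genes called), and in WSD embryos the same 6 fell and 0 rose (against 4.07%). These were the YAP1 and WWTR1 targets CCN1, CCN2, GADD45A and CCDC80, the atypical cadherin DCHS1, a ligand of the FAT receptors upstream of the kinases, and the TEAD cofactor VGLL3, which was named for WSD after its values were seen. The median log2 change of the 44 was -0.69 in T, -0.77 in WSD and -1.11 in TWSD. In TWSD 1 of 44 fell, DOCK5, a guanine nucleotide exchange factor listed among the targets (-7.21 ± 1.85, adjusted p = 0.0497), where 1.2% of all tested genes were called.

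Each of the 6 was high in 1 to 3 control libraries. CCN1, a matrix protein and a standard YAP1 readout, was at 3.24 to 74.1 CPM in T, 9.60 to 55.5 CPM in WSD, 0.129 and 11.5 CPM in TWSD, and 2.64, 22.5, 109, 12.0 and 2835 CPM in C 1, C 2, C 8, C 11 and C 12. CCN2, its relative, was at 10.6 to 29.4 CPM in T, 3.76 to 29.3 CPM in WSD, 6.83 and 13.5 CPM in TWSD, and 10.9, 12.2, 132, 4.01 and 1010 CPM in the same controls. GADD45A, a DNA damage response gene, was at 1422 CPM in C 12 and at most 143 CPM in every other library. C 12, the library highest for YAP1 and TEAD1, was the highest of all 25 for 6 of the 16 tested target genes (37.5%, against 19.3% of all tested genes), among them CCN1, CCN2 and GADD45A. The other 10 targets peaked elsewhere, and MYOF, named after its values were seen, was at its lowest there, at 8.88 CPM.

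C 11 and C 8 held the peaks of the rest. CCDC80 was at 272 CPM in C 11 and at most 1.44 CPM elsewhere, and DCHS1 was at 35.9 CPM in C 11 and at most 2.80 CPM elsewhere. VGLL3 stood at 41.8, 38.7 and 11.7 CPM in libraries C 8, C 11 and C 12 and at most 1.47 CPM elsewhere. Without C 12, the log2 change of CCN1 was -0.35 in T (adjusted p = 0.922) and -0.40 in WSD (adjusted p = 0.917), and 1 of 44 genes passed in T and 2 in WSD. Without C 11, 3 of 44 passed in T and 3 in WSD. Without C 8, C 11 and C 12, 0 of 44 passed in either, with CCN1 at 1.22 in T and 1.17 in WSD. Over all tested genes, 64 passed in T and 57 in WSD without C 12, and 463 and 540 without C 11. Without C 8, C 11 and C 12, 1 passed in T and 1 in WSD. DOCK5 was at 0.0644 and 0.0360 CPM in TWSD 2 and TWSD 3 and at 0.650 to 20.9 CPM in C. In TWSD, 0 of 44 passed without C 8, where 154 of all tested genes were called. Without C 1, 0 were higher and 4 lower, beside 680 of all tested genes called. Without C 2, 1 was higher and 2 lower, beside 388. Without C 11 the DOCK5 call was lost and the 1 call was TAOK3, which was higher, beside 112 of all tested genes called. On TWSD 2 alone the median log2 change of the 44 was -1.87, against -1.08 over all tested genes. On TWSD 3 alone it was -0.90, against -0.34.

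Of the 9 tested genes of the kinase group upstream of and around LATS, 0 passed edgeR's quasi-likelihood test in T, WSD or TWSD. In each, 2 had an unadjusted p under 0.05, beside 2544, 2551 and 3062 of all 13934 tested genes. DESeq2 called TAOK3 higher in WSD, and TAOK3 higher and TAOK2 lower in TWSD. It called 1171 of all tested genes in WSD and 1995 in TWSD. TAOK3, a kinase that can activate the pathway upstream of LATS and is named here after its values were seen, was at 31.1 to 111 CPM in T, 52.6 to 94.0 CPM in WSD, 243 and 80.1 CPM in TWSD 2 and TWSD 3, and 20.4, 68.8, 38.4, 1.20 and 13.0 CPM in C 1, C 2, C 8, C 11 and C 12. Its log2 change was 1.30 ± 0.50 in T (adjusted p = 0.143), 1.49 ± 0.52 in WSD (adjusted p = 0.1002) and 2.51 ± 0.67 in TWSD (adjusted p = 0.0560). Without C 2, the highest control, TAOK3 passed edgeR's test as higher in all 3 comparisons. Those fits called 1063 of all tested genes in T, 1073 in WSD and 388 in TWSD. In TWSD it also passed without C 11, beside 112 of all tested genes called. TAOK3 did not pass in any of the 3 without C 12, or without C 8, C 11 and C 12. STK3 had log2 changes of -0.41 in T, -0.15 in WSD and -0.088 in TWSD, and STK4 of 0.40, 0.52 and 0.70. SAV1, the scaffold that holds STK3 and STK4 to LATS, had -0.030, -0.089 and 0.36, and NF2, which brings LATS to the membrane, had 0.55, 0.72 and 0.29. NF2 was at 3.66 CPM in C 12 and between 44.6 and 180 CPM in the other 24 libraries. ANKRD1, a canonical target, was below 12 CPM in every library and had a log2 change of -0.69 in T, -1.58 in WSD and -6.21 in TWSD, none of which passed edgeR's test, while DESeq2 called it lower in TWSD.

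**Figure D4:**
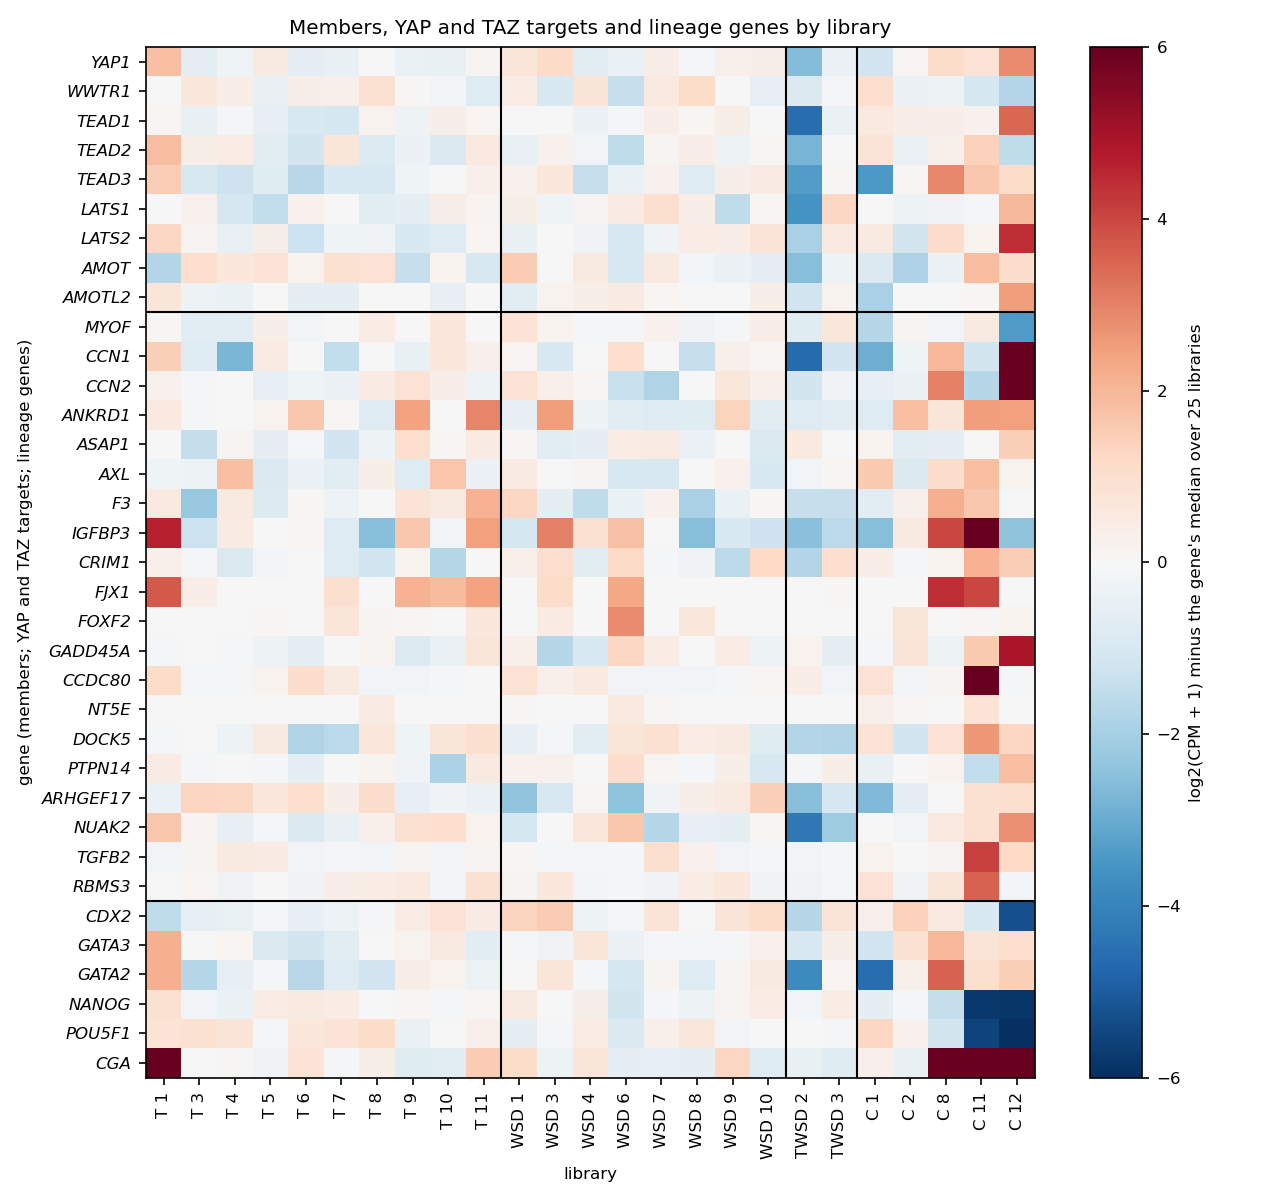
Level of each Hippo gene and of the target and lineage genes in every library, as log2(CPM + 1) minus that gene's median over the 25 libraries (colours saturate at a difference of 6), with libraries ordered T, WSD, TWSD and C. C 12 is the high column for YAP1, TEAD1, LATS1, LATS2, AMOTL2, CCN1 and CCN2 and the low one for WWTR1, CDX2, NANOG and POU5F1, and TWSD 2 is the low column for TEAD1, TEAD2 and LATS1.

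Lineage genes that Hippo signalling controls in the mouse were read beside the members. CDX2 was at 33.8 to 182 CPM in T, 80.7 to 285 CPM in WSD, 29.4 and 171 CPM in TWSD, and 122, 263, 149, 51.1 and 1.57 CPM in C 1, C 2, C 8, C 11 and C 12, with log2 changes of -0.27 in T, 0.53 in WSD and -0.23 in TWSD that did not pass. GATA3, a trophectoderm factor, had -0.69, -0.95 and -1.15, and GATA2, which works with it, had -1.68, -1.76 and -2.61, none past the threshold. TFAP2A, another trophectoderm factor, fell in T (-3.20 ± 0.73, adjusted p = 0.0143) and in WSD (-3.65 ± 0.80, adjusted p = 0.0134), the only 1 of 8 trophectoderm genes to do so. TFAP2A reached 1147, 521 and 1161 CPM in libraries C 8, C 11 and C 12 against 27.5 and 46.9 CPM in libraries C 1 and C 2, and without the first 3 its change was 0.78 in T and 0.34 in WSD. Without C 12 alone its calls were lost (adjusted p = 0.104 in T and 0.0739 in WSD). NANOG had 1.55, 1.38 and 1.49 and POU5F1 0.86, 0.34 and 0.23 in T, WSD and TWSD. Of 9 inner cell mass genes 0 passed edgeR's test in any of the 3. An unadjusted p under 0.05 was found for 2, 1 and 0, beside 2544, 2551 and 3062 of all 13934 tested genes.

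Markers of other cell types moved with these results. The summed level of 12 syncytiotrophoblast genes was 164 to 4356 CPM in T, 178 to 683 CPM in WSD, 131 and 141 CPM in TWSD and 138 to 11970 CPM in C, with 4356 in T 1 and 11970, 4647 and 8844 in C 8, C 11 and C 12. In TWSD CYP19A1 and PAPPA2 of that list were at 0. The summed level of 10 cumulus and granulosa genes was 204 to 818 CPM in T, 31.4 to 293 CPM in WSD, 170 and 294 CPM in TWSD and 106 to 2708 CPM in C, highest in C 8, C 11 and C 12. CYP11A1, a steroidogenic enzyme that trophoblast also expresses, carried most of it in C 8, at 2618 CPM. The other 9 genes summed to 0.694 to 70.3 CPM in T, 0.324 to 15.5 CPM in WSD, 0.709 and 8.16 CPM in TWSD and 3.77 to 1146 CPM in C, highest in C 11. In C 11, VCAN was at 667, HAS2 at 267 and TNFAIP6 at 212 CPM, and TNFAIP6 was at 122 CPM in C 12. AMH was at most 8.88 CPM and FOXL2 at most 10.9 CPM in any of the 25. FSHR was at 0 in every C library, and FSHR, LHCGR and INHBA were at most 0.356 CPM and PTX3 at most 1.06 CPM in any of the 25. Sums of 9 inner cell mass genes were 1123 to 2195 CPM in T, 624 to 1784 CPM in WSD, 1127 and 1619 CPM in TWSD and 19.3 to 1943 CPM in C. Their part in the levels of LATS2, TEAD1 and the targets was not tested.

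Genes most like the members in pattern were named by Spearman correlation of log2 CPM over the 25 libraries, among 12604 tested genes with a symbol. These values share libraries, scaling and the libraries that stood apart, and are a description. For YAP1 they were BCL9L (0.88), VASP (0.87) and CIZ1 (0.87), for WWTR1 PPARGC1B (0.90), CLUH (0.88) and POU4F1 (0.82), for LATS2 HNRNPUL1 (0.81), ATXN2L (0.78) and FSCN1 (0.78), and for AMOTL2 SLC3A2 (0.74), SPRY1 (0.73) and ACSF2 (0.73). Over the 21 libraries other than T 1, C 8, C 11 and C 12 the correlation with these first-named genes was 0.81 for YAP1 with BCL9L, 0.91 for WWTR1 with PPARGC1B, 0.76 for LATS2 with HNRNPUL1 and 0.69 for AMOTL2 with SLC3A2. Within each set of 3, the order changed over these 21 libraries for YAP1, where CIZ1 was highest (0.82), and for AMOTL2, where ACSF2 was highest (0.71).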

How the data were processed

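Blastocysts of rhesus macaques were sequenced as 25 RNA libraries. What the authors deposited is a single table of unnormalized read counts, with genes in rows. Per the submitters' processing notes, FastQC 0.11.8, Trimmomatic 0.39 and STAR 2.7.0 were used with the Mmul_10 genome build. No source used here names the read counter, its strand setting or the annotation release, so reads of overlapping genes cannot be told apart. Names came from a table that paired 24173 of 35395 identifiers with a symbol.

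A gene was tested if 5 or more libraries reached 1 CPM (13934 genes). After TMM scaling, edgeR 4.0.16 in R 4.3.3 fitted the 4 groups, without further terms, to the 25 libraries, and its robust quasi-likelihood F-test was adjusted by Benjamini-Hochberg at 0.05. The biological coefficient of variation was 0.9. Differences are the first-named group over the second. Paralogue ratios are log2 ratios of counts plus 0.5, compared by exact permutation. DESeq2 1.42.0, limma 3.58.1 with voom weights, other scalings, no filter, left-out libraries and a replicate block were alternatives. The fit was tested on simulated data. No library was a repeat of another, with a smallest chi-square per gene of 65.5 over 300 pairs. Levels of 3 counts or fewer carry a counting error near their own size.

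The genes and lists were chosen with earlier results of these data known. Named genes are all members, the 8 with the smallest p among called genes of the pathway, polarity and lineage lists in each comparison, and 13 fixed targets, kinase partners and lineage genes, of which SOX2 was not matched and is not analysed here. For TEAD4 no most-alike genes are given. Of the lists also read as markers, sums over 8 trophectoderm genes were 3223 to 11460 CPM in T, 5192 to 18570 CPM in WSD, 5274 and 7191 CPM in TWSD and 1701 to 12300 CPM in C. KRT18 carried most of each group's highest sum, at 9345 CPM in T 11, 16240 in WSD 6, 4908 in TWSD 3 and 9522 in C 2. Sums over 9 oocyte genes were 117 to 532 CPM in T, 114 to 528 CPM in WSD, 143 and 253 CPM in TWSD and 4.42 to 278 CPM in C. KHDC3L carried nearly all of each group's highest sum, at 530 CPM in T 5, 526 in WSD 3, 239 in TWSD 3 and 267 in C 2. Sums over 7 blood genes were 3.90 to 22.6 CPM in T, 4.27 to 22.4 CPM in WSD, 2.71 and 5.39 CPM in TWSD and 3.34 to 27.4 CPM in C. Sums over 8 sperm genes were at most 1.55 CPM in T, 2.76 CPM in WSD, 1.37 CPM in TWSD and 20.5 CPM in C, the last in C 12.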

Additional observations from a re-analysis of the deposited data

Results flagged for a closer look

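In 7 of 27 tests of a member within a group of 5 to 10 libraries, 1 library lay far from the rest, by the gap to its nearest neighbour as a share of the group's whole range on the log2 CPM scale. Chance alone gives about 1 such gap in 20 tests. Over all tested genes and the same 3 groups the share of tests with such a gap was 10.8%, with 10.3% in T, 10.2% in WSD and 11.9% in C, so gaps of this kind were not limited to the members. In C 12, TEAD1 was at 286 CPM with the other controls at 31.1 to 38.9 CPM (share 0.900), and LATS1 was at 51.3 CPM with the others at 9.75 to 12.0 CPM (share 0.874). In T 1, YAP1 was at 159 CPM with the other T libraries at 29.5 to 66.4 CPM (share 0.518), and AMOTL2 was at 361 CPM with the others at 148 to 221 CPM (share 0.548). The remaining 3 were low values in WSD, in 3 different libraries. TEAD2 was at 1.95 CPM in WSD 6 with the others at 5.12 to 10.2 CPM (share 0.582), LATS1 at 3.73 CPM in WSD 9 with the others at 10.4 to 25.2 CPM (share 0.533), and AMOTL2 at 143 CPM in WSD 1 with the others at 216 to 314 CPM (share 0.528). T 1 and C 12 are both among the 4 libraries with CGA at 1004 CPM or more, whose part in these values was not tested.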

How the results depend on the processing

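The count of members called in T was 0 with library totals, limma voom quality weights, only the 2 groups compared in the fit, without C 8, C 11 and C 12, and without T 1 as well, and 1 (LATS2) with DESeq2, which gave TEAD1 no p-value. In WSD it was 0 under those settings other than DESeq2, and also 0 with no filter on low counts, and in TWSD it was 2 with DESeq2. Of the 44 wider genes, 0 passed in T, WSD and TWSD with voom weights, without C 8, C 11 and C 12, and without T 1 as well. With only the groups compared 2 passed in T and 0 in WSD and TWSD, and with no filter 3 in WSD and 0 in TWSD. In TWSD 0 passed with DESeq2 size factors or library totals and 11 with DESeq2. Over all 13934 tested genes, calls in T, WSD and TWSD were 0, 0 and 0 with voom weights and 1097, 1171 and 1995 with DESeq2. They were 240, 321 and 96 with library totals, and 114, 30 and 0 with only the groups compared. Without C 8, C 11 and C 12 they were 1, 1 and 18, and 0, 1 and 32 without T 1 as well. DESeq2 size factors gave 128 in TWSD. With no filter, 450 of 32053 were called in WSD and 92 in TWSD. In T against WSD and the interaction the counts of members and wider genes stayed at 0 under every alternative that left in both TWSD libraries. Causes were not tested.

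Leaving out 1 C or TWSD library at a time gave 0 to 4 members in T, 0 to 2 in WSD, 0 to 5 in TWSD and 0 to 3 in the interaction, and 1 to 8, 2 to 7, 0 to 9 and 0 to 4 wider genes. The ranges that follow are those with 1 C or TWSD library left out at a time. Log2 changes that turned sign ranged in T from -0.39 to 0.32 (TEAD2), -0.98 to 0.023 (LATS1), -0.54 to 0.51 (AMOT) and -1.24 to 0.14 (AMOTL2). In WSD they ranged from -0.58 to 0.42 (LATS1), -0.60 to 0.45 (AMOT) and -0.97 to 0.41 (AMOTL2), and in TWSD from -0.69 to 0.30 (WWTR1) and -7.15 to 0.70 (LATS1). Interaction values ranged from -1.94 to 0.49 (YAP1), -5.71 to 1.48 (TEAD1), -4.98 to 0.22 (TEAD2), -4.59 to 1.76 (TEAD3), -5.99 to 1.86 (LATS1) and -0.62 to 1.05 (AMOTL2). Differences in paralogue ratios that turned sign ranged from -1.46 to 3.43 for LATS2 to LATS1 in TWSD, -0.65 to 1.87 in T and -0.47 to 2.05 in WSD for TEAD3 to TEAD1, -0.42 to 1.25 for TEAD2 to TEAD1 in WSD, and -0.98 to 0.11 in T and -0.76 to 0.33 in WSD for AMOTL2 to AMOT.

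Without C 8, C 11 and C 12 the sign turned in T for YAP1 (0.65), WWTR1 (-0.24), TEAD2 (0.035), TEAD3 (0.71), LATS1 (0.056), LATS2 (0.083), AMOT (1.98) and AMOTL2 (0.54), and in WSD for YAP1 (0.78), WWTR1 (-0.23), TEAD3 (1.00), LATS1 (0.45), LATS2 (0.17), AMOT (1.92) and AMOTL2 (0.81). It turned in TWSD for TEAD3 (0.0082), LATS1 (0.54), AMOT (0.40) and AMOTL2 (0.33), and in the interaction for TEAD1 (-0.76), TEAD3 (-1.70), LATS2 (-0.33) and AMOTL2 (-1.02). The ratio of YAP1 to WWTR1 turned to 0.74 in T and 1.10 in WSD, and that of LATS2 to LATS1 to 0.21 in T and 0.019 in WSD. These ratio alternatives were chosen after seeing the data. With T 1 left out too, WSD and TWSD gave the same turned values (TEAD3 0.0083 in TWSD), and the sign turned in T for YAP1 (0.28), WWTR1 (-0.22), TEAD3 (0.27), LATS1 (0.038), AMOT (2.11) and AMOTL2 (0.42), in T against WSD for WWTR1 (0.013), and in the interaction for TEAD1 (-0.72), TEAD3 (-1.26), LATS2 (-0.075) and AMOTL2 (-0.89). Library totals turned LATS1 in TWSD (0.0093) and WWTR1 in T against WSD (0.017). Voom weights turned AMOT (1.10) and AMOTL2 (0.024) in T, LATS1 (0.078), AMOT (0.87) and AMOTL2 (0.37) in WSD, WWTR1 (0.079) in T against WSD, and TEAD1 (-1.81), TEAD3 (-1.20), LATS1 (-0.86) and AMOTL2 (-0.44) in the interaction.

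Library numbers recur across groups but do not pair the libraries: of 16 same-numbered pairs 3 had deviations correlated above 0.1 (range -0.38 to 0.22). With the replicate number as a replicate block, 0 members and 0 wider genes passed in T, WSD and TWSD, where 0 of all tested genes were called. The sign then turned for AMOTL2 in T (0.21), for WWTR1 (-0.060), AMOT (0.12) and AMOTL2 (0.50) in WSD, for WWTR1 (0.29) and AMOT (-0.12) in T against WSD, and for TEAD1 (-0.86), LATS1 (-0.039) and AMOTL2 (-0.83) in the interaction. Scaling moved the median log2 change of all genes in T to 0.023 for library totals and -0.19 for DESeq2's factors, beside -0.12 with TMM. Low counts limit TEAD1, TEAD2, TEAD3 and LATS1 in TWSD 2 and TEAD3 in C 1, where 1 to 3 counts were read. These libraries held 20381869 and 16168844 counts in total, beside 14219054 in T 1, where these genes had 182 to 447 counts.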

Other observations

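Of 16 apical and basal polarity genes, which set where Hippo signalling is active in the mouse embryo, PRKCZ and ROCK1 passed edgeR's quasi-likelihood test. PRKCZ, an atypical protein kinase C of the apical domain, was at 37.7 to 105 CPM in T, 23.1 to 112 CPM in WSD, 64.6 and 47.6 CPM in TWSD, and 82.5, 80.8, 301, 504 and 217 CPM in C 1, C 2, C 8, C 11 and C 12. It fell in T (log2 change -1.82 ± 0.39, adjusted p = 0.0113) and in WSD (-2.02 ± 0.42, adjusted p = 0.0109), and without C 8, C 11 and C 12 its change was -0.26 in T and -0.47 in WSD, neither of which passed. ROCK1, a kinase of the actin cytoskeleton whose inhibition alters YAP1 location in mouse embryos, was at 53.5 to 113 CPM in T, 48.2 to 134 CPM in WSD, 75.7 and 103 CPM in TWSD, and 52.6, 46.9, 46.8, 43.7 and 36.2 CPM in the controls. It rose in WSD (0.91 ± 0.25, adjusted p = 0.0388), and this call was lost without C 12 (0.84, adjusted p = 0.123). Its T change of 0.59 and its TWSD change of 0.98 did not pass.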
